A study of Mus musculus with 9 samples.

Results

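The let-7 and miR-98 family was measured as 10 mature miRNAs among the 1052 miRNAs of the table: mmu-let-7a-5p, mmu-let-7b-5p, mmu-let-7c-5p, mmu-let-7d-5p, mmu-let-7e-5p, mmu-let-7f-5p, mmu-let-7g-5p, mmu-let-7i-5p, mmu-let-7j and mmu-miR-98-5p, written here without the species prefix. Members were chosen by their names, and the row with the largest total was kept where a name had several rows. Small RNA was sequenced from sorted cells in 9 libraries. The tissue was lateral cortex, taken on embryonic day 14.5 from embryos of the C57BL/6 strain and dissociated with papain. The 3 populations were sorted by endogenous reporter fluorescence, and each gave 3 libraries. Proliferating progenitors were negative for both the R and the G reporter (RminusGminus), differentiating progenitors were positive for R and negative for G (RplusGminus), and newborn neurons were positive for G (Gplus). The labels do not name the genes that drive the reporters, the number of embryos per library or whether the libraries of a population came from separate litters, so that p-values measure the spread between these libraries only. Reporter-negative cells are defined by what they lack, and other cell types without reporters can be among them.

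Mature let-7 miRNAs guide Argonaute proteins to messenger RNAs that carry a match to the seed, the stretch near the 5′ end that pairs with the target. In vertebrates the family is known for accumulating as embryonic cells differentiate, for a feedback loop with the RNA-binding protein LIN28, which blocks processing of most let-7 precursors, and for repressing growth and cell-cycle genes such as Hmga2 and Ccnd1. In the developing brain, let-7 has been linked to the slowing of neural stem cell division and to the timing of neurogenesis.

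The mature sequences (RefSeq, GRCm38.p6, matched for 10 of 10 members) show how close the members are to each other, which bears on every count given here. They are written 5′ to 3′ with bases 2 to 8, the seed, in capitals.
let-7a-5p: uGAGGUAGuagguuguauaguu
let-7b-5p: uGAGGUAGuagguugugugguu
let-7c-5p: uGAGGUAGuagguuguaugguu
let-7d-5p: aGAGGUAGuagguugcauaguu
let-7e-5p: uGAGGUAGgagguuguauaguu
let-7f-5p: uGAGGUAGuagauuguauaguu
let-7g-5p: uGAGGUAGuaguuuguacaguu
let-7i-5p: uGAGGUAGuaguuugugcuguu
miR-98-5p: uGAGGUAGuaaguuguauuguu
let-7j: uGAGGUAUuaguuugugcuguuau

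The seed was shared by 9 members. let-7j differed from it at its last base (G8U relative to let-7i-5p, counted from 1 at the 5′ end). Over the positions they share, 5 of the 45 pairs of members differed by a single substitution: let-7a-5p and let-7c-5p (A19G), let-7a-5p and let-7e-5p (U9G), let-7a-5p and let-7f-5p (G12A), let-7b-5p and let-7c-5p (G17A), and let-7i-5p and let-7j (G8U). How the authors assigned reads that match several of these sequences is not given in the sources used here. Counts of such neighbours are therefore uncertain where reads could be split between them. Of the other 2 RefSeq miRNAs with this seed, let-7k had 0 to 4 counts in a library and miR-1961 was not analysed here.

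The 12 hairpins of the members other than let-7j lie at 8 places in the genome (GRCm38, GENCODE M21). The first cluster, chr13:48536012-48538272 on the minus strand, holds Mirlet7a-1, Mirlet7f-1 and Mirlet7d within 2261 bases and overlaps exons of the long noncoding gene 6720427I07Rik. Mirlet7c-2 and Mirlet7b share chr15:85706603-85707403 in exons of Lncppara. Mirlet7f-2 and Mir98 share chrX:151912346-151913321 in an intron of Huwe1, which encodes a ubiquitin ligase. The remaining clusters pair a let-7 with members of the miR-99/100 and miR-125 families. Mir100, Mirlet7a-2 and Mir125b-1 lie at chr9:41531425-41582002 in introns of the noncoding gene 3110039I08Rik. Mir99a, Mirlet7c-1 and Mir125b-2 lie at chr16:77598936-77646343 in introns of Mir99ahg, and Mir99b, Mirlet7e and Mir125a lie at chr17:17830188-17830879 in Spaca6, with Mirlet7e in an intron. Mirlet7g (chr9:106178840-106178927) stands alone in an intron of Wdr82 and Mirlet7i (chr10:122985640-122985724) overlapping an exon of the pseudogene D630033A02Rik. let-7j is placed at chr3:140028281-140028304 by RefSeq. let-7a-5p, let-7c-5p and let-7f-5p are each made at 2 of these places, so their counts do not belong to a single cluster.

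Library totals ran from 821155 to 3856484 counts. miR-9-5p alone held 62.5% to 69.0% of a library. Marker miRNAs describe the sort but are no independent check of it, since their lists were chosen with earlier results of these data known. The neuronal miR-124-5p stood at 38.0 to 82.8 CPM among proliferating progenitors, 96.1 to 250.1 among differentiating ones and 317 to 503 among neurons. The other neuronal markers listed, miR-124-3p and miR-128-3p, were not analysed here. Erythroid markers (miR-451a, miR-144-5p) summed to 260.5 to 354 CPM among proliferating progenitors, 0.881 to 2.86 among differentiating ones and 0 to 2.31 among neurons. The mural or mesenchymal miR-143-3p and miR-145a-5p summed to 431 to 571, 37.1 to 39.9 and 12.3 to 34.7 CPM in the same order. The endothelial miR-126a-5p stood at 18.4 to 26.2, 11.4 to 12.3 and 5.28 to 12.3 CPM. The haematopoietic miR-142a-5p and miR-146a-5p summed to 23.6 to 32.7, 11.4 to 19.2 and 0.772 to 1.54 CPM, and miR-142a-5p had 0 counts in all 3 neuron libraries (a count of 0 allows up to 3 counts, which is 0.778 to 3.65 CPM over the 9 libraries). These 2 went opposite ways between the progenitor populations. The mean of miR-142a-5p went from 21.5 to 1.24 CPM, and that of miR-146a-5p from 7.10 to 14.8, then 1.12 in neurons. The other 4 markers of these lists were not analysed here. The part that such cells play in the family's values was not tested.

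The family was a large part of every library. Its 10 members together held 13.8%, 13.6% and 12.0% of all counts in replicates 1 to 3 of proliferating progenitors. The same shares were 13.7%, 16.0% and 15.1% for differentiating progenitors and 12.5%, 11.4% and 14.5% for newborn neurons. The means were 13.1% ± 0.947, 14.9% ± 1.14 and 12.8% ± 1.54 (SD, n = 3 each), and the libraries of the populations overlapped. The level of these shares depends on the rows: where the rows of a name were summed, in the family and in the total, the means were 7.95%, 9.28% and 7.65%. Of the counts other than miR-9-5p, the family held 38.7% to 40.7%, 39.7% to 42.6% and 34.9% to 38.7%. By that denominator, all neuron libraries lay below all libraries of both progenitor populations, but the highest neuron library (38.72%) all but reached the lowest library of proliferating progenitors (38.74%). No test was made of these sums over chosen members. Counting error was small beside the spread between libraries: the 95% Wilson interval of the share of a library reached at most 0.0704 percentage points to either side. Such intervals cover counting error only, since amplified reads are not independent molecules.

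The order of the members by their mean share of the family's counts was let-7i-5p (28.3%), let-7f-5p (23.1%), let-7c-5p (16.2%), let-7g-5p (14.8%), let-7a-5p (9.09%), let-7b-5p (2.32%), let-7e-5p (2.03%), let-7d-5p (1.84%), let-7j (1.66%) and miR-98-5p (0.659%). The first 5 together took 90.6% to 92.1% of the family in a library. By mean level let-7i-5p ranked 2, let-7f-5p 4, let-7c-5p 5 and let-7g-5p 6 among the 188 miRNAs tested, and miR-98-5p ranked 37. Neighbours in this order were not always apart. Libraries of let-7f-5p and let-7c-5p overlapped in differentiating progenitors, those of let-7c-5p and let-7g-5p in proliferating progenitors and neurons, and each of the pairs from let-7b-5p to let-7e-5p, let-7e-5p to let-7d-5p and let-7d-5p to let-7j overlapped in 2 of 3 populations.

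**Figure D1:**
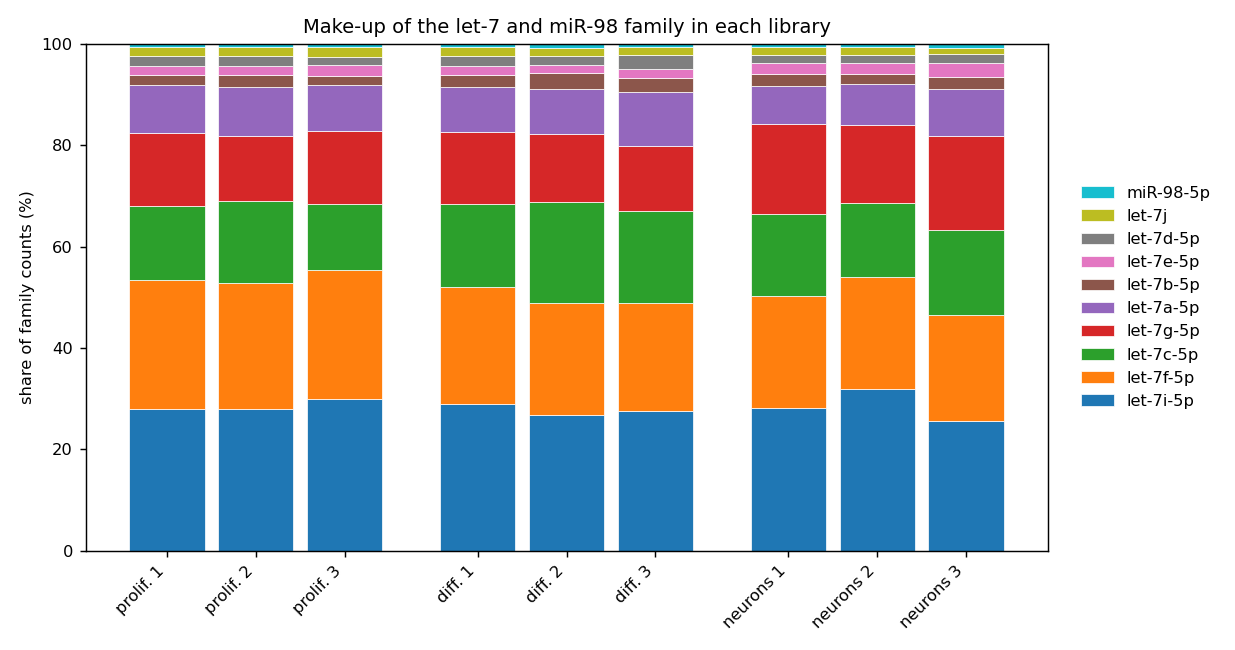
Share of the family's counts taken by each of the 10 members (vertical axis, percent) in each of the 9 libraries (bars, replicates 1 to 3 of each population). let-7i-5p is the largest and let-7f-5p the next in all 9 libraries and the first 5 members fill 90.6% to 92.1% of every bar, while the band of let-7g-5p is wider in neurons (15.3% to 18.5%) than in progenitors (12.7% to 14.4%).

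Levels of single members are given as TMM-scaled CPM, counts scaled to a common library size with a factor that edgeR derives for each library. They are relative abundances: in RNA from a pool of cells, fewer cells of a type and less RNA per cell cannot be told apart. Differences were tested with edgeR's quasi-likelihood test over all 188 miRNAs that passed the filter on low counts. All 10 members passed it, and a member is called at an adjusted p under 0.05. Across the 3 populations 7 of the 10 members differed, where 58.5% of all 188 miRNAs did. With the replicate number as a block the count was 6, since miR-98-5p was no longer called (edgeR adjusted p = 0.064 against 0.049). It was 4 without replicate 2 of the differentiating progenitors and 4 without replicate 2 of the neurons.

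At the second step of the lineage, from differentiating progenitors to newborn neurons, most of the family fell. There 8 of 10 members fell by 0.31 to 0.78 on the log2 scale at an edgeR adjusted p under 0.05, and none was called higher. let-7e-5p and let-7g-5p were not called. Over all 188 miRNAs 46.3% were called at this step and 22.3% were called lower. The median log2 change was -0.44 over the members and -0.06 over all miRNAs tested. For 8 members, the ones called, no differentiating library overlapped with a neuron library, compared with 49.5% of all miRNAs tested. On shares of the library total 4 members, let-7d-5p, let-7f-5p, let-7i-5p and let-7j, were lower without overlap, where 46.8% of all miRNAs tested did not overlap. Those shares count both directions. Lower without overlap were 42 of the 188 miRNAs by TMM-scaled CPM and 35 by shares of the library total. The size of the falls was modest, and the largest, of let-7d-5p, was under 2-fold.

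Among the abundant members, let-7f-5p stood at 35132, 37541 and 32906 CPM among proliferating progenitors, 31037, 35194 and 34199 among differentiating ones and 27587, 24975 and 24617 among newborn neurons. Every neuron library lay below every progenitor library, and both progenitor populations overlapped. From differentiating progenitors to neurons let-7f-5p fell by 0.38 (log2 SE 0.11, adjusted p = 0.0104 by edgeR), and over the whole lineage by 0.45 (SE 0.11, adjusted p = 0.00248 by edgeR). let-7a-5p, which differs from let-7f-5p by a single base, had 13071, 14606 and 11852 CPM among proliferating progenitors, 11952, 14121 and 17163 among differentiating ones and 9425, 9147 and 11020 among neurons. It fell by 0.55 at the second step (log2 SE 0.14, adjusted p = 0.00532 by edgeR) and by 0.42 over the whole lineage (SE 0.14, adjusted p = 0.0205 by edgeR). let-7a-5p was thus low in all neuron libraries as well, with its highest value in replicate 3 of the differentiating progenitors, and without that library the fall was 0.34 (log2) and not called (edgeR adjusted p = 0.0681, the highest of its alternatives; the lowest was 0.000668).

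let-7i-5p, the most abundant member, had 38580, 41817 and 38658 CPM among proliferating progenitors, 38875, 42605 and 44056 among differentiating ones and 34918, 36095 and 30403 among neurons. By TMM-scaled CPM all neuron libraries were below all progenitor libraries. As a share of the library total its neuron libraries (3.52% to 3.71%) overlapped with proliferating progenitors (3.60% to 3.84%). Its fall at the second step was the smallest of those called, 0.31 (log2 SE 0.11, adjusted p = 0.0345 by edgeR), and the call held in 8 of 22 alternatives, with adjusted p-values from 0.00261 to 0.246. It was lost with the replicate number as a block, the only member call that the block ended at this step (edgeR adjusted p = 0.0579). let-7j, annotated as a separate gene, had 2452, 2761 and 2534 CPM among proliferating progenitors, 2325, 2555 and 2406 among differentiating ones and 1945, 1825 and 1568 among neurons. It fell by 0.45 at the second step (log2 SE 0.13, adjusted p = 0.00909 by edgeR) and by 0.54 over the whole lineage (SE 0.13, adjusted p = 0.00188 by edgeR), with no overlap between neurons and either progenitor population.

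let-7b-5p and let-7c-5p had their highest means in the middle population. let-7c-5p had 20038, 24393 and 16901 CPM among proliferating progenitors, 21928, 31547 and 29310 among differentiating ones and 20263, 16555 and 20050 among neurons. let-7b-5p, best known in neural stem cells as a repressor of the nuclear receptor Nr2e1 (TLX) and of Ccnd1, had 2800, 3555 and 2144, then 3278, 4914 and 4179, then 2816, 2310 and 2775 CPM in the same order. For both, by TMM-scaled CPM, all neuron libraries lay below all differentiating progenitor libraries and overlapped with proliferating progenitors. As shares of the library total, their neuron libraries overlapped with differentiating progenitors as well. At the second step let-7b-5p fell by 0.65 (log2 SE 0.18, adjusted p = 0.00764 by edgeR) and let-7c-5p by 0.54 (SE 0.16, adjusted p = 0.00935 by edgeR). At the first step, between both progenitor populations, the log2 change of let-7b-5p was 0.54 (SE 0.18, adjusted p = 0.0514 by edgeR), just outside the threshold. That of let-7c-5p was 0.43 (SE 0.16, adjusted p = 0.0732 by edgeR). The first was called in 9 and the second in 8 of 22 alternatives.

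let-7d-5p, the member whose first base is A, showed the largest fall. It had 2533, 2783 and 2037 CPM among proliferating progenitors, 2640, 2797 and 4370 among differentiating ones and 1824, 1786 and 2103 among neurons. Its fall at the second step was 0.78 (log2 SE 0.18, adjusted p = 0.00215 by edgeR). Replicate 3 of the differentiating progenitors was far above the others, and without it the fall was 0.45 (log2), still called. miR-98-5p, the least abundant member, had 885, 925 and 897 CPM among proliferating progenitors, 919, 1144 and 1024 among differentiating ones and 800, 671 and 831 among neurons. By TMM-scaled CPM all its neuron libraries were below all progenitor libraries, and it fell by 0.42 at the second step (log2 SE 0.14, adjusted p = 0.0203 by edgeR). As a share of the library total its neuron libraries (0.0676% to 0.101%) overlapped with both progenitor populations (0.0834% to 0.0882% and 0.0937% to 0.115%).

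let-7g-5p and let-7e-5p were the members not called at this step. let-7g-5p had 19901, 19127 and 18605 CPM among proliferating progenitors, 19173, 21377 and 20447 among differentiating ones and 21991, 17347 and 21885 among neurons. The neuron libraries reached on both sides of the progenitor libraries, and the log2 change at the second step was 0.0053 (SE 0.12, adjusted p = 0.966 by edgeR). let-7e-5p had 2625, 2652 and 2741, then 2262, 2755 and 3087, then 2890, 2335 and 3260 CPM, with all 3 populations overlapping. Its log2 change at the second step was 0.07 (SE 0.15, adjusted p = 0.736 by edgeR).

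**Figure D2:**
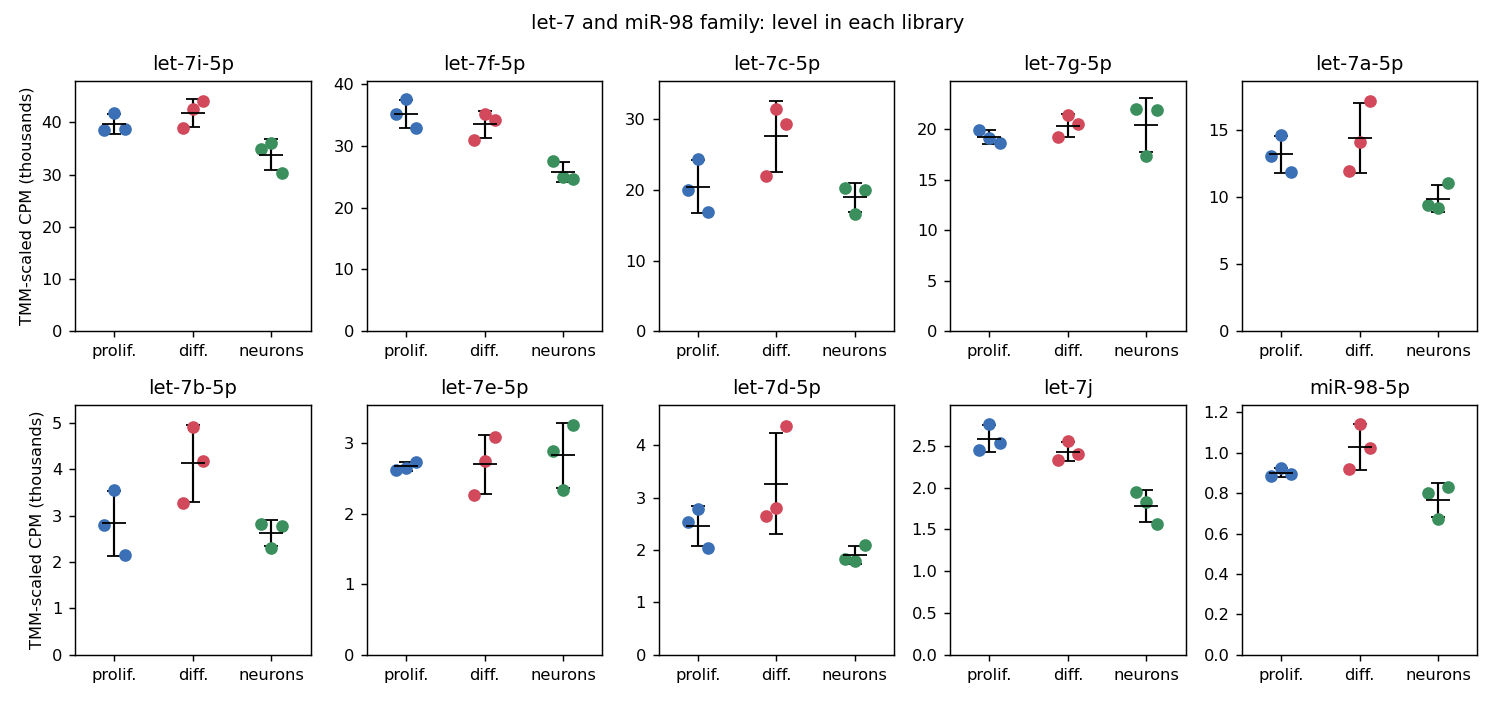
TMM-scaled CPM, divided by 1000, (vertical axes, starting at 0) of the 10 members in the 3 populations, ordered by mean share. Points are libraries, the horizontal mark is the mean and the bar 1 SD (n = 3); neurons lie below differentiating progenitors without overlap in all panels but let-7g-5p and let-7e-5p.

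At the first step no member was called, where 16.0% of all miRNAs tested were. At an unadjusted p under 0.05 the edgeR test gave 3 members (let-7b-5p, let-7c-5p and let-7d-5p), and DESeq2 called 2 at an adjusted p under 0.05, let-7b-5p and let-7c-5p. No member was free of overlap between both progenitor populations, compared with 32.4% of all miRNAs tested. On shares of the library total, with no scaling factor, 5 members (let-7b-5p, let-7c-5p, let-7d-5p, let-7i-5p and miR-98-5p) were higher in differentiating progenitors without overlap, where 36.2% of all miRNAs tested did not overlap. That percentage counts both directions, and 39 of the 188 miRNAs were higher without overlap. The median log2 change was 0.11 over the members and 0.08 over all miRNAs tested.

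From proliferating progenitors to neurons 3 of 10 members were called, all lower: let-7f-5p, let-7a-5p and let-7j. The call of let-7a-5p was lost without replicate 2 of the proliferating progenitors or replicate 1 or 2 of the neurons (log2 changes -0.34, -0.39 and -0.32). It held in 14 of 22 alternatives, with adjusted p-values by edgeR or DESeq2 up to 0.268 (log2 change -0.21, library totals), and was also lost with upper-quartile factors (log2 change -0.38). Over all miRNAs tested 56.4% were called and 26.6% were called lower. Libraries did not overlap for 5 members (let-7a-5p, let-7f-5p, let-7i-5p, let-7j and miR-98-5p), compared with 64.4% of all miRNAs tested. On shares of the library total these were 2 members, let-7f-5p and let-7j, where 59.0% of all miRNAs tested did not overlap. The 64.4% and 59.0% count both directions, while all of these members were lower. Lower without overlap were 60 of the 188 miRNAs by TMM-scaled CPM and 44 by shares of the library total. With library totals the falls of let-7f-5p and let-7j over the whole lineage were 0.26 and 0.35 (log2), still called. The remaining 7 members had log2 changes from -0.37 (let-7d-5p) to 0.09 (let-7g-5p). All these comparisons share libraries with each other, so agreement between them carries no separate weight.

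The number of calls at the second step changed with single libraries and with the scaling. The count of 8 fell to 2 without replicate 2 of the differentiating progenitors, to 3 without their replicate 3 and to 3 without replicate 2 of the neurons. With replicate 2 of the differentiating progenitors left out the calls of let-7b-5p, let-7c-5p, let-7f-5p, let-7i-5p, let-7j and miR-98-5p were lost, with their replicate 3 left out those of let-7a-5p, let-7c-5p, let-7f-5p, let-7i-5p and miR-98-5p, and with replicate 2 of the neurons left out those of let-7b-5p, let-7c-5p, let-7f-5p, let-7i-5p and miR-98-5p. All of them were still lower in neurons. The call of let-7i-5p was also lost without replicate 1 of any population, and its fall was 0.20 (log2) without replicate 3 of the neurons. The count was 7 and 8 with RLE and upper-quartile factors, 5 with library totals alone and 4 with totals that leave out miR-9-5p, always all lower. Another scaling moved the median log2 change of all miRNAs at this step from -0.06 to as low as -0.25 (upper-quartile factors) and as high as 0.11 (totals without miR-9-5p). With totals that leave out miR-9-5p the falls were smaller, 0.35 for let-7a-5p and let-7c-5p, 0.27 for let-7j, 0.24 for miR-98-5p, 0.20 for let-7f-5p and 0.12 for let-7i-5p (log2). Relative to the median of all miRNAs at this step, 8 members were lower with each of the 5 scalings. A scaling factor moves members and median nearly alike, so this count could hardly change and adds no support.

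**Figure D3:**
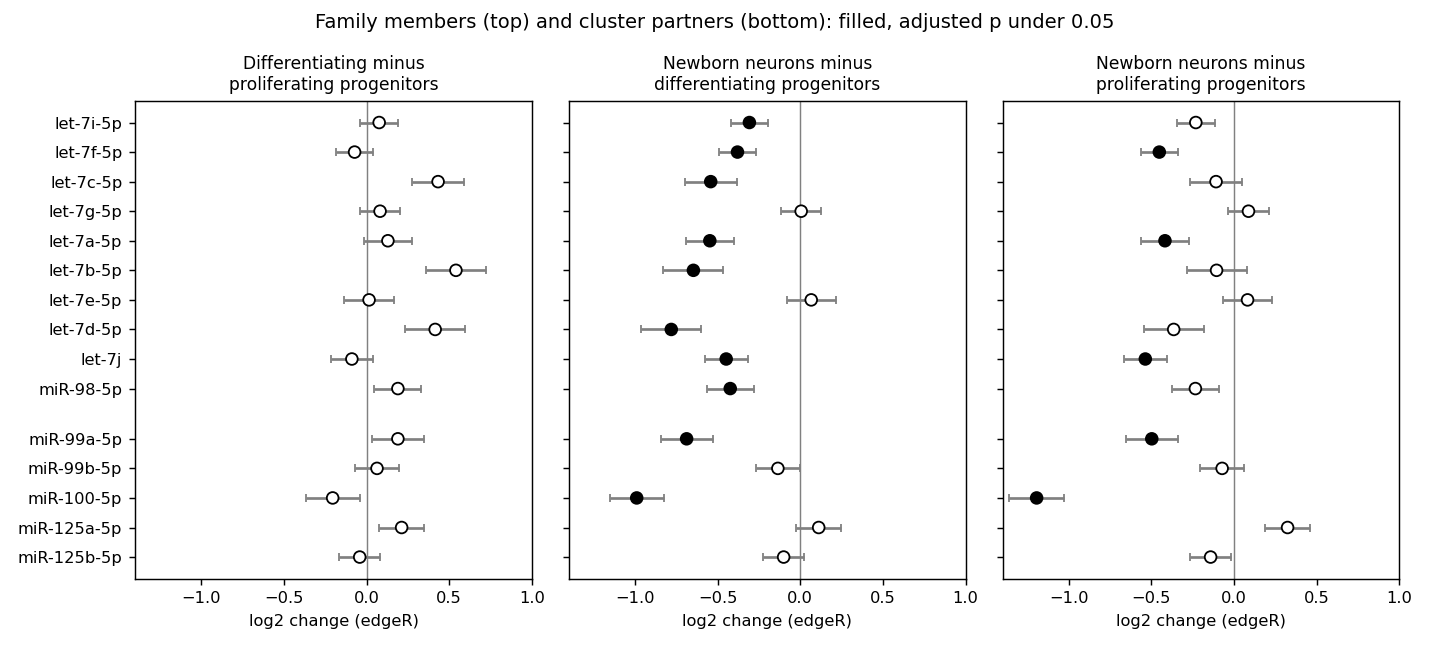
log2 changes with SE (horizontal axes, edgeR, n = 3 libraries per population) of the 10 members and, set apart at the bottom, the 5 cluster partners, in the 3 comparisons; filled points have an adjusted p under 0.05. In the middle panel 8 members lie left of 0 as filled points, and let-7g-5p and let-7e-5p lie at 0.0053 and 0.07.

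Shares of the family's own counts do not depend on how libraries are scaled, and they showed which members moved against each other. A member's share also changes when other members change, so it does not show which of them moved. For let-7g-5p, the log2 change in level at the second step was 0.0053. let-7g-5p took 14.4%, 12.7% and 14.4% of the family among proliferating progenitors, 14.3%, 13.4% and 12.8% among differentiating ones and 17.7%, 15.3% and 18.5% among neurons. Its neuron libraries lay above all progenitor libraries. let-7e-5p took 1.78% ± 0.129 of the family in differentiating progenitors and 2.38% ± 0.347 in neurons (SD, n = 3 each), also without overlap. let-7f-5p made up 25.3% ± 0.262 among proliferating progenitors, 22.2% ± 0.878 among differentiating ones and 21.7% ± 0.785 among neurons, with proliferating progenitors above both others. let-7b-5p and let-7c-5p went from 2.02% ± 0.355 and 14.6% ± 1.59 in proliferating to 2.71% ± 0.338 and 18.1% ± 1.77 in differentiating progenitors, in both cases without overlap, by a narrow margin for let-7c-5p (16.2% against 16.3%). These shares are given as a description, since a share over chosen members has no test here.

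Ratios of a pair of members in the same library tested such differences directly. For each, an exact permutation test of the log2 ratio over the 3 populations used all 1680 ways to place the 9 libraries, and 0.00357 is the smallest p it can give. It took no account of replicate numbers. Over all 45 pairs of members, 17 had p under 0.05 and none had a Benjamini-Hochberg adjusted p under 0.05. Both pairs at the smallest p held let-7g-5p, against let-7f-5p and against let-7j (exact p = 0.00357, adjusted p = 0.0804). Between differentiating progenitors and neurons the ratio did not overlap for 16 of the 45 pairs, and 13 of these set let-7e-5p or let-7g-5p against one of the other 8 members. That grouping was made after the values were seen.

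Further ratios compared miRNAs that share a cluster, though the clusters of let-7a-2 and let-7c-1 span 50578 and 47408 bases. miR-125b-5p is made on chromosomes 9 and 16, and let-7a-5p, let-7c-5p and let-7f-5p also come from more than 1 cluster. Ratios that hold any of these 4 miRNAs are therefore not those of a single cluster. Of 12 ratios, all between miRNAs that share a cluster but let-7g-5p to let-7i-5p, 4 had an exact p under 0.05. After Benjamini-Hochberg adjustment over the 12, 1 stayed under 0.05. This was let-7a-5p to miR-125b-5p, whose ratio was 1.07, 1.04 and 1.04 among proliferating progenitors, 1.11, 1.11 and 1.31 among differentiating ones and 0.824, 0.782 and 0.998 among neurons (exact permutation p = 0.00357, adjusted p = 0.0429). All neuron libraries had the lower ratio. This call was lost when any progenitor library was left out. let-7a-5p to miR-100-5p went the other way, from 0.628 to 0.781 in proliferating progenitors through 0.789 to 0.982 in differentiating progenitors to 1.05, 0.972 and 1.80 in neurons (exact permutation p = 0.0107, adjusted p = 0.0571). Replicate 3 of the neurons stood far above the other libraries in that ratio.

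Within the let-7-only clusters, let-7d-5p to let-7a-5p was 0.172 to 0.194 among proliferating progenitors, 0.198 to 0.255 among differentiating ones and 0.191 to 0.195 among neurons (exact permutation p = 0.0143, adjusted p = 0.0571). Differentiating progenitors lay above both other populations in every library. let-7b-5p to let-7c-5p ranged narrowly, from 0.127 to 0.156 over all 9 libraries, with neurons below differentiating progenitors without overlap (exact permutation p = 0.132, adjusted p = 0.227). These neighbours differ by a single base as well as lying in the same cluster. miR-98-5p to let-7f-5p ran from 0.0247 to 0.0338 (exact permutation p = 0.114, adjusted p = 0.227).

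The partners from the miR-99/100 and miR-125 families lie in the clusters of let-7a-2, let-7c-1 and let-7e and belong to other seed families. miR-100-5p fell by 0.99 (log2 SE 0.16, adjusted p = 0.000143 by edgeR), from 13380, 17908 and 17469 to 9012, 9406 and 6138 CPM, and miR-99a-5p by 0.69 (SE 0.16, adjusted p = 0.00189 by edgeR). miR-99b-5p, miR-125a-5p and miR-125b-5p were not called (log2 changes -0.14, 0.11 and -0.10). Of the 5 partners 2 were called at this step, both lower, none at the first step, and 2 over the whole lineage, miR-100-5p and miR-99a-5p, both lower. In the chromosome 17 cluster neither let-7e-5p nor miR-99b-5p nor miR-125a-5p was called in any of the 3 comparisons. Over the whole lineage miR-125a-5p was just outside the threshold (log2 change 0.32, SE 0.14, adjusted p = 0.0553 by edgeR). All its neuron libraries lay above all libraries of proliferating progenitors. The ratio of let-7e-5p to miR-99b-5p ran from 0.146 to 0.248 over the 9 libraries (exact permutation p = 0.661) and that to miR-125a-5p from 0.615 to 1.01 (exact permutation p = 0.304).

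Members were also compared by their course over the 9 libraries, which share scaling factors and depth. The Pearson correlation of log2 CPM was 0.99 between let-7b-5p and let-7c-5p, 0.97 between let-7f-5p and let-7j and 0.94 between let-7a-5p and let-7d-5p. Other pairs were nearly as alike, with 0.89 for let-7i-5p and let-7j, 0.85 for let-7c-5p and miR-98-5p, 0.82 for let-7a-5p and let-7f-5p and 0.81 for let-7c-5p and let-7d-5p, so that these values set no groups apart. let-7e-5p and let-7g-5p correlated at 0.74 with each other and at -0.23 and -0.22 with let-7i-5p. Outside the family, the miRNA most like let-7i-5p was miR-99a-5p (0.99), and those most like let-7f-5p and let-7j were miR-100-5p (0.95 and 0.99) and miR-504-5p (0.92 and 0.94). For let-7b-5p and let-7c-5p it was miR-449c-5p (0.92 and 0.89), for let-7a-5p and let-7d-5p miR-146a-5p (0.91 and 0.86), for let-7g-5p and let-7e-5p miR-191-5p and miR-361-5p (0.85 and 0.75), and for miR-98-5p miR-15a-5p (0.88). All are over 9 libraries and are descriptions. miR-146a-5p, on the haematopoietic list above, is itself rare here, with 2 to 26 counts in a library, and so is miR-449c-5p, with 1.31 to 19.4 CPM and rank 184 of 188.

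let-7j followed more abundant members closely. Its counts amounted to 6.36%, 6.60% and 6.56% of those of let-7i-5p among proliferating progenitors, 5.98%, 6.00% and 5.46% among differentiating ones and 5.57%, 5.06% and 5.16% among neurons. Relative to let-7f-5p they ran from 6.37% to 7.70% over the 9 libraries, with a coefficient of variation of 5.29%, the lowest against any member, compared with 9.91% against let-7i-5p. let-7j is 1 substitution away from let-7i-5p and 5 away from let-7f-5p over their shared positions. Whether reads of other members entered the let-7j row was not tested.

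The rows of let-7a-5p, let-7c-5p and let-7f-5p held a further difference between the populations. Each name had 2 rows with nearly the same counts, 1 for each precursor, and the small difference between them shifted in neurons. For let-7f-5p the second row exceeded the first by 1.28%, 1.46% and 1.36% of the larger row among proliferating progenitors, 1.49%, 1.50% and 1.60% among differentiating ones and 2.02%, 2.43% and 2.04% among neurons. For let-7c-5p the second row was lower by 0.210% to 0.349% and by 0.184% to 0.199% in both progenitor populations and higher by 0.253%, 0.248% and 0.176% in neurons. The 3 populations were apart in both (exact permutation p = 0.00357, the smallest possible; adjusted p = 0.00536 over the 3 names).

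For let-7a-5p the rows were within 6 counts of each other in all progenitor libraries, and in neurons the second row was lower by 140, 35 and 56 counts (exact permutation p = 0.0321, adjusted p = 0.0321). By miRBase's numbering, which the files used here do not pair with genes, the first and second rows belong to the precursors numbered 1 and 2. The precursor stretches are shown to compare what follows the mature end (RefSeq, GRCm38.p6), with the mature miRNA in lower case and the next 8 bases in capitals.
Mirlet7a-1: ugagguaguagguuguauaguuUUAGGGUC
Mirlet7a-2: ugagguaguagguuguauaguuUAGAGUUA
Mirlet7c-1: ugagguaguagguuguaugguuUAGAGUUA
Mirlet7c-2: ugagguaguagguuguaugguuUUGGGCUC
Mirlet7f-1: ugagguaguagauuguauaguuGUGGGGUA
Mirlet7f-2: ugagguaguagauuguauaguuUUAGGGUC

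With that numbering, the row that gained in neurons was in each case the precursor in which 2 U follow the mature end (Mirlet7a-1, Mirlet7c-2 and Mirlet7f-2), and the other row the precursor with 1 U or none. Whether reads with added bases at the 3′ end were counted is not given in the sources used here, and the origin of the difference was not tested. Such a shift was not found in the family alone: of 13 other names with 2 rows and at least 1000 counts (miR-486a-5p and miR-486b-5p, with the same values, as 1), 5 had an exact permutation p under 0.05 and 3 did not overlap between differentiating progenitors and neurons. The largest was miR-218-5p, with 1.15% to 1.81%, 1.96% to 2.70% and 14.0% to 15.0% in the order of the lineage. The bases after the mature end were not compared for these other names. The question was raised after the counts had been seen.

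**Figure D4:**
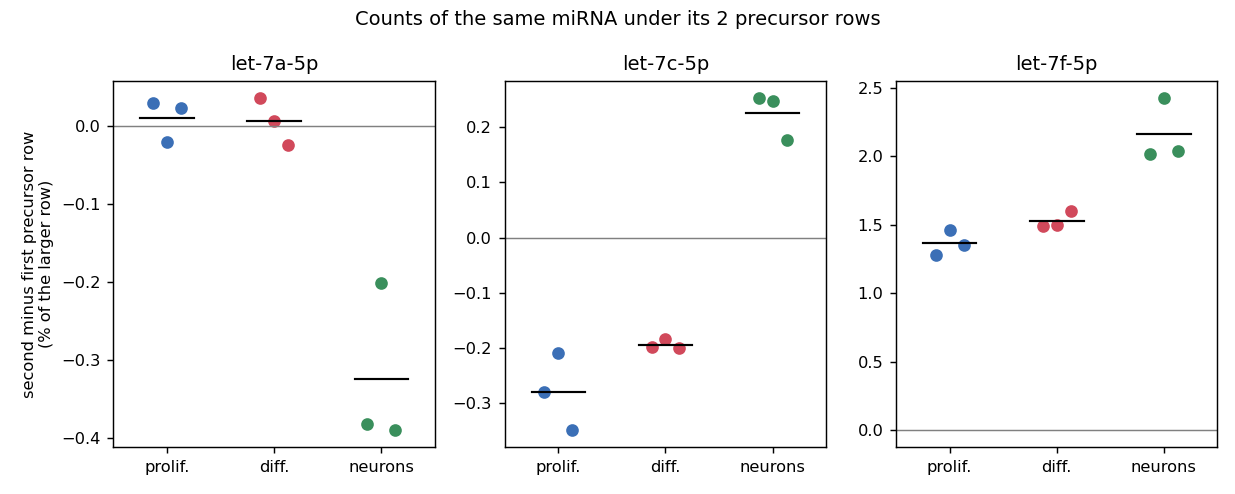
Difference between the second and the first precursor row of let-7a-5p, let-7c-5p and let-7f-5p, in percent of the larger row (vertical axes, which differ in range), by population; points are libraries and lines means (n = 3). Neuron libraries lie apart from both progenitor populations in all 3 panels, below 0 for let-7a-5p and above 0 for let-7c-5p and let-7f-5p.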

How the data were processed

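The authors deposited 1 table of raw read counts, whole numbers with 1 column per library, for 1433 rows. Per the labels' protocols, a NEBNext kit for small RNA was used. Per the submitters' processing notes, bcl2fastq 1.8.2, DESeq2 and the build mm10 were used; the aligner and the treatment of reads with several matches are not given in the sources used here. Rows with an accession (1211) were reduced to 1 row per mature name, the one with the largest total, and names with nearly equal counts (within 2%, at least 50 counts) were merged, leaving 1052 miRNAs. The 222 predicted rows were left out. No 3p arm of the family was analysed here.

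The count test was edgeR 4.0.16 under R 4.3.3 (steps filterByExpr, TMM, estimateDisp, glmQLFit, glmQLFTest; 9 libraries, no covariate), with Benjamini-Hochberg adjustment over the 188 miRNAs tested. SE is the size of the log2 change over the square root of F. Ratios used count + 0.5 and exact permutation tests of the sum of squares between populations, which take either direction (two-sided). The exact tests, also those of row differences, took no account of replicate numbers. The scripts were tested on simulated data. Named miRNAs are the members, cluster partners, miRNAs sharing the seed, and those most correlated with each member; marker lists cover erythroid, endothelial, haematopoietic, mural and neuronal miRNAs. Members, lists and rules were chosen with earlier results of these data known. Replicate numbers were checked as pairs by the correlation of deviations from population means. It was over 0.1 for all 3 same-numbered pairs of differentiating progenitors and neurons (0.145, 0.228 and 0.1101). Same-numbered pairs with proliferating progenitors ran from 0.0025 to 0.243 for differentiating progenitors and from -0.076 to -0.059 for neurons. Differently numbered pairs of differentiating progenitors and neurons ran from -0.220 to 0.1097, so the limit of 0.1 does not set the same numbers apart. All of them lay below the same-numbered pairs, by a narrow margin. These values cannot decide whether the numbers pair those libraries. The labels state no pairing. Alternatives comprised other scalings, filters, tools and row choices, a replicate block, and leaving out each library.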

Additional observations from a re-analysis of the deposited data

Results flagged for a closer look

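let-7k, which shares the family's seed but is outside the members and was too rare to be tested, was marked because its row reached more than 3 counts, the limit that a count of 0 allows, in 1 library. It had 4 counts in replicate 2 of the proliferating progenitors and 0 to 3 in each of the other libraries, and no difference between the populations can be read from so few.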

How the results depend on the processing

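Leaving out 1 library at a time gave 2 to 8 members called at the second step (8 as reported), 0 to 2 at the first (0), 2 to 4 over the whole lineage (3) and 4 to 7 across the populations (7). The second-step count was 5 with library totals, 4 with totals without miR-9-5p, 5 with no filter on low counts, 4 with predicted rows included and 0 where a 2-fold change was required, which also gave 0 over the whole lineage. Predicted rows gave 3 across the populations. The first-step count was 1 with RLE factors, 2 with upper-quartile factors, library totals, no filter or DESeq2, and 3 with every row with an accession. The replicate block gave 0, 7, 3 and 6 members at the first step, second step, whole lineage and across the populations; it changed no member call other than those of let-7i-5p (second step) and miR-98-5p (across). Adding let-7j to let-7i-5p, chosen after seeing the data, gave 0, 7, 2 and 7 of the remaining 9. The 1 ratio called became 3 with summed rows and ran from 0 to 4 with 1 library left out. The share of the family was 40.05%, 41.2% and 36.8% without miR-9-5p and 7.95%, 9.28% and 7.65% with summed rows, in lineage order; with 1 library left out it ran from 12.8% to 13.7%, 14.4% to 15.5% and 12.0% to 13.5%.

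No called member changed direction. Of uncalled members, at the first step let-7e-5p turned to -0.072 (totals without miR-9-5p), -0.040 (summed rows) and -0.027 (predicted rows), let-7i-5p to -0.0022 (totals without miR-9-5p), let-7f-5p to 0.13 and 0.028 and let-7j to 0.11 and 0.011 (upper-quartile factors and every row). At the second step let-7e-5p and let-7g-5p turned to -0.10 and -0.16 with upper-quartile factors. Over the whole lineage let-7b-5p turned to 0.096, 0.012 and 0.018 and let-7c-5p to 0.093, 0.0058 and 0.013 (library totals, totals without miR-9-5p, every row). With 1 library left out, let-7a-5p and let-7e-5p ran from -0.028 to 0.24 and -0.11 to 0.12 at the first step, let-7e-5p and let-7g-5p from -0.028 to 0.27 and -0.069 to 0.19 at the second, and let-7b-5p, let-7c-5p and let-7e-5p from -0.27 to 0.087, -0.23 to 0.034 and -0.028 to 0.25 over both. The cause was not tested.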
